A study of Mus musculus with 3 samples.

Results

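Tropomyosins, tropomodulins and leiomodins are the proteins that lie along actin filaments or sit at their slow-growing, pointed ends. They were represented by 9 genes (Tpm1, Tpm2, Tpm3, Tpm4, Tmod1, Tmod3, Tmod4, Lmod2 and Lmod3), chosen by symbol among the 20162 genes of the read-count table. They lie on mouse chromosomes 3 (Tpm3 and Tmod4), 4 (Tpm2 and Tmod1), 6 (Lmod2 and Lmod3), 8 (Tpm4) and 9 (Tpm1 and Tmod3). Polyadenylated RNA came from C2C12 cells, mouse myoblasts of an established line whose cells fuse to myotubes when serum is low. Both Tead4 shRNA groups and the control were lentivirus-infected, puromycin-selected populations that had differentiated for 7 days in 2% horse serum. There were 2 Tead4 shRNA libraries, called shRNA A and shRNA B here, each with its own short hairpin RNA (shRNA) against Tead4, and 1 library with a control shRNA. Tead4 is a TEAD family transcription factor that binds DNA. Each shRNA was represented by a single library, and the labels describe no repeat cultures, so the p-values reflect no more than the spread among the libraries at hand, which may be technical.

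Tropomyosins are coiled-coil dimers that wrap along actin filaments and, in striated muscle, carry the troponin complex that makes contraction depend on calcium. Tpm1 and Tpm2 code for the main striated forms and also, by alternative promoters and splicing, for smooth muscle and cytoskeletal forms. Tpm3 codes for a slow muscle form and for cytoskeletal forms, and Tpm4 mainly for a cytoskeletal form. Tropomodulins cap the pointed end of tropomyosin-coated filaments, with Tmod1 and Tmod4 found in striated muscle and Tmod3 in many cell types. Leiomodins are related to tropomodulins but start or lengthen filaments; Lmod2 is known from heart and skeletal muscle and Lmod3 from skeletal muscle. Counts were per gene, so the muscle and cytoskeletal transcripts of 1 gene were summed.

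The libraries held 15594305 to 19918954 counted reads. Tead4 itself had 19.7 CPM with shRNA A and 10.8 CPM with shRNA B, against 78.2 CPM in the control library (log2 fold change -2.35, SE 0.27, edgeR quasi-likelihood adjusted p = 2.82e-06). CPM are counts scaled to 1000000 reads of the effective library size given by edgeR's TMM scaling. Markers of differentiated skeletal muscle were present in all 3 libraries, with none of 9 at 0 reads. They summed to 7612 and 8688 CPM with shRNAs A and B, against 14119 CPM in the control library. Much of this difference was Myh3, at 1442 and 1297 CPM with the shRNAs, against 4228 CPM in the control library. Of the 9 markers, 4 passed the test across all genes as lower, against 4.48% of all tested genes. Those that did not pass include Ttn (log2 fold change -0.09) and Des (-0.25). In bulk RNA, fewer muscle cells and less muscle RNA per cell cannot be told apart.

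Of the 9 genes, 8 passed the filter on low counts and 1 of these, Tpm4, passed the test across all genes, as higher with Tead4 shRNA. The background was 5.34% of the 14478 tested genes called higher and 4.48% called lower, 9.82% in all. No member was called lower with edgeR, DESeq2 or limma-voom. At an unadjusted p under 0.05 there were 3 members in edgeR's test (Tpm4, Tmod3 and Tmod1), against a background of 21.7%. The median log2 fold change of the 8 was -0.22, against 0.02 over all tested genes. With shRNA A alone the median log2 ratio of the 8 was -0.38, and with shRNA B alone it was -0.10.

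**Figure D1:**
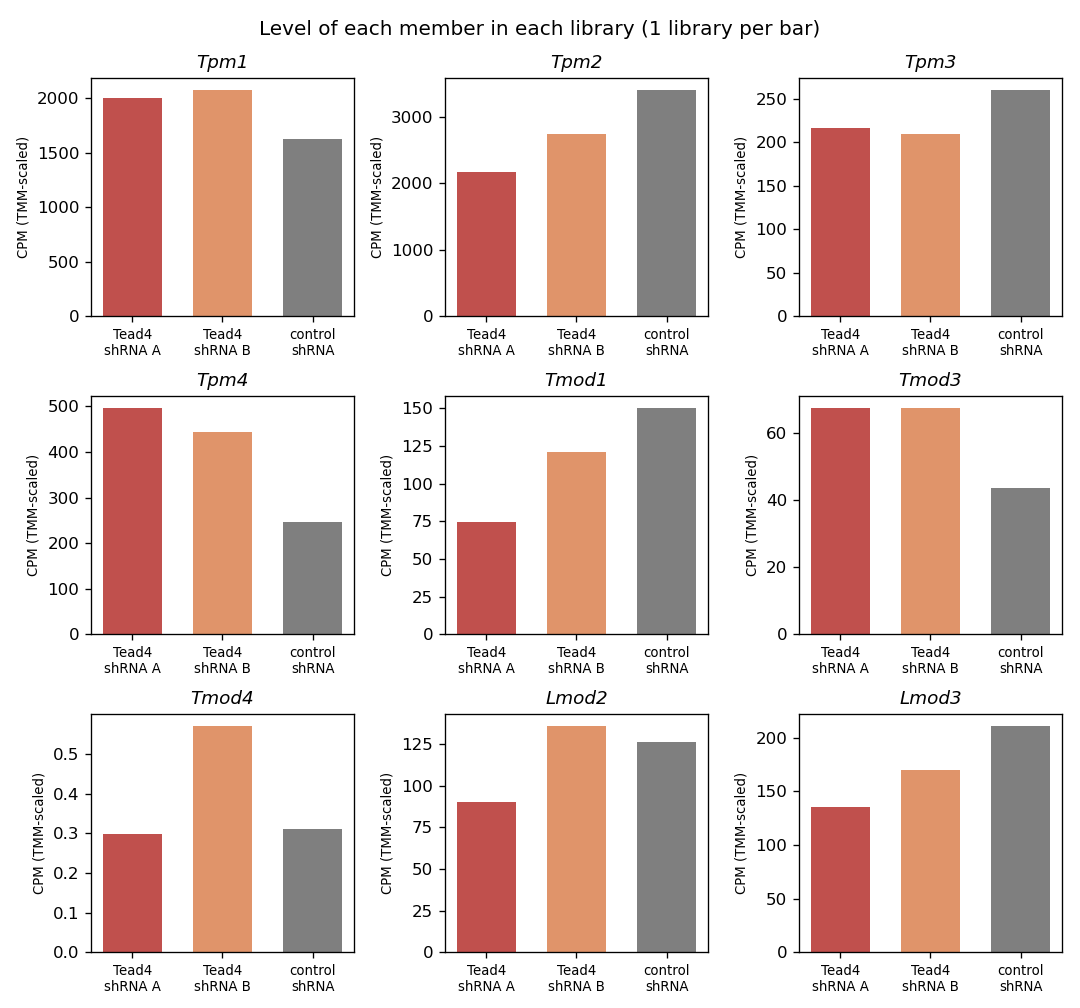
CPM of each of the 9 members (vertical axes, each from 0) in the shRNA A, shRNA B and control libraries, 1 library per bar and no error bars. Tpm4 was 497 and 443 CPM with the shRNAs and 246 CPM in the control library, while Tpm2 was 2165 and 2738 CPM with the shRNAs and 3409 CPM in the control library.

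Tpm4 (ENSMUSG00000031799) had 9993 reads in the shRNA A library and 6975 in the shRNA B library, against 3944 in the control library, or 497 and 443 CPM against 246 CPM. Both Tead4 shRNA libraries were above the control library, shRNA A by 2.02-fold and shRNA B by 1.80-fold. On the log2 scale these ratios were 1.02 (95% exact counting interval 0.96 to 1.07) for shRNA A and 0.85 (0.79 to 0.91) for shRNA B. With the 2 libraries in 1 fit, Tpm4 rose by 0.94 on the log2 scale (SE 0.25, edgeR quasi-likelihood adjusted p = 0.0179). This call depended on how the spread was estimated. With the dispersion of all 3 libraries taken as 1 group, the likelihood-ratio test gave Tpm4 an adjusted p of 0.885. By that test 0 genes of the table passed (540 at an unadjusted p under 0.05). That dispersion counts the difference between the Tead4 shRNA and control libraries as spread. The test therefore cannot tell whether Tpm4 changed. Under the 7 other settings tried, the adjusted p of Tpm4 ran from 0.00363 (DESeq2) to 0.0316 (RLE scaling). Another gene, Gm26586, covers 6.3% of the exon bases of Tpm4 in the GENCODE annotation. The part of Gm26586 reads in the values of Tpm4 was not tested.

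The factor knocked down binds the MCAT element, so the 250 bases before the transcription start were searched in every member with a window and are printed for 3: Tpm4, which passed the test, and Tpm1 and Tmod1, the 2 members whose windows held that element. Sequences are RefSeq's (GRCm38.p6, a later build than the mm9 build named by the submitters), 5′ to 3′ on the gene's strand. Capitals mark MCAT elements, searched as CATTCC on both strands, and E-boxes, the sites of myogenic factors, searched as CANNTG; these do not overlap here. The windows are chr8:72135038-72135287 (plus strand) for Tpm4, chr9:67049214-67049463 (minus strand) for Tpm1 and chr4:46038972-46039221 (plus strand) for Tmod1.
Tpm4: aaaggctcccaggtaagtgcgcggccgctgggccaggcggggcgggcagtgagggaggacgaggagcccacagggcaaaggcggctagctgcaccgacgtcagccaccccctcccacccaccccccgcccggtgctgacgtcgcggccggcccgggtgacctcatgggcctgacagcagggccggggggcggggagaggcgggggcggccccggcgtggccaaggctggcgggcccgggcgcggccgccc
Tpm1: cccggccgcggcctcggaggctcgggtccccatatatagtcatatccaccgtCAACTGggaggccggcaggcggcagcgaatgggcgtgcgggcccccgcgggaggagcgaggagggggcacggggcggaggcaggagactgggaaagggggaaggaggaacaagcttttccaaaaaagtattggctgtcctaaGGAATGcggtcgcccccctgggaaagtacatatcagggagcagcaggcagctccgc
Tmod1: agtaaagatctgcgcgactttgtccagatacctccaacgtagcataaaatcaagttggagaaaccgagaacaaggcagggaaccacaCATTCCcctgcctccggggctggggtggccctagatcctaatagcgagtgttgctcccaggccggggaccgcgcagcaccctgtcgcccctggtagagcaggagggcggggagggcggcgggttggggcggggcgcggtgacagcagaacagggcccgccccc
The Tpm4 window held neither motif. The Tpm1 window held the reverse-strand form GGAATG at -56 to -51 from the start and an E-box at -198 to -193. In the Tmod1 window CATTCC lay at -163 to -158. Windows were found for 7 of the 9 members, 8 windows in all. The MCAT letters were in 2 of them and in 12.6% of 32851 promoter windows of the same length, and an E-box was in 6 of them and in 66.2% of all windows. None of the 8 held a CArG box, the site of serum response factor, which was in 1.47% of all windows. The 2 members with an MCAT match had values on opposite sides of the control: a log2 fold change of 0.32 for Tpm1 and -0.62 for Tmod1, neither of which passed the test. Tpm1 has 16 coding transcripts in the GENCODE annotation and starts other than the 1 shown, so a window stands for 1 start and not for the gene.

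Tpm1 (ENSMUSG00000032366) had 2003 CPM with shRNA A and 2077 CPM with shRNA B, against 1629 CPM in the control library. Both shRNA libraries were above the control library and close to each other, with log2 ratios of 0.30 (interval 0.28 to 0.32) and 0.35 (0.33 to 0.37). The fit over both gave Tpm1 a log2 fold change of 0.32 (SE 0.25, edgeR adjusted p = 0.507), so the difference was not called.

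Tpm2 (ENSMUSG00000028464) had the most reads of the 9 in every library: the counts were 43559 for shRNA A, 43148 for shRNA B and 54742 for the control. These were 2165, 2738 and 3409 CPM, so both shRNA libraries were lower than the control library and shRNA A was the lowest. As log2 ratios these were -0.65 for shRNA A (interval -0.67 to -0.64) and -0.32 for shRNA B (-0.33 to -0.30), and the fold change over both was -0.48 (SE 0.25, edgeR adjusted p = 0.278), not called. Its counting intervals with the 2 shRNAs did not overlap, as was also so for Tpm1, Tpm4, Tmod1, Lmod2 and Lmod3. The share of all tested genes with such intervals was not computed.

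Tpm3 (ENSMUSG00000027940) had 216 CPM with shRNA A and 209.6 CPM with shRNA B, against 260.1 CPM in the control library. The log2 fold change was -0.29 (SE 0.23, edgeR adjusted p = 0.526) and the log2 ratios of -0.27 and -0.31 had overlapping counting intervals (-0.33 to -0.21 and -0.38 to -0.25). Tpm3 has processed copies elsewhere in the mouse genome, and how reads that map to several places were counted was not given in the sources used here, so its level is uncertain.

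**Figure D2:**
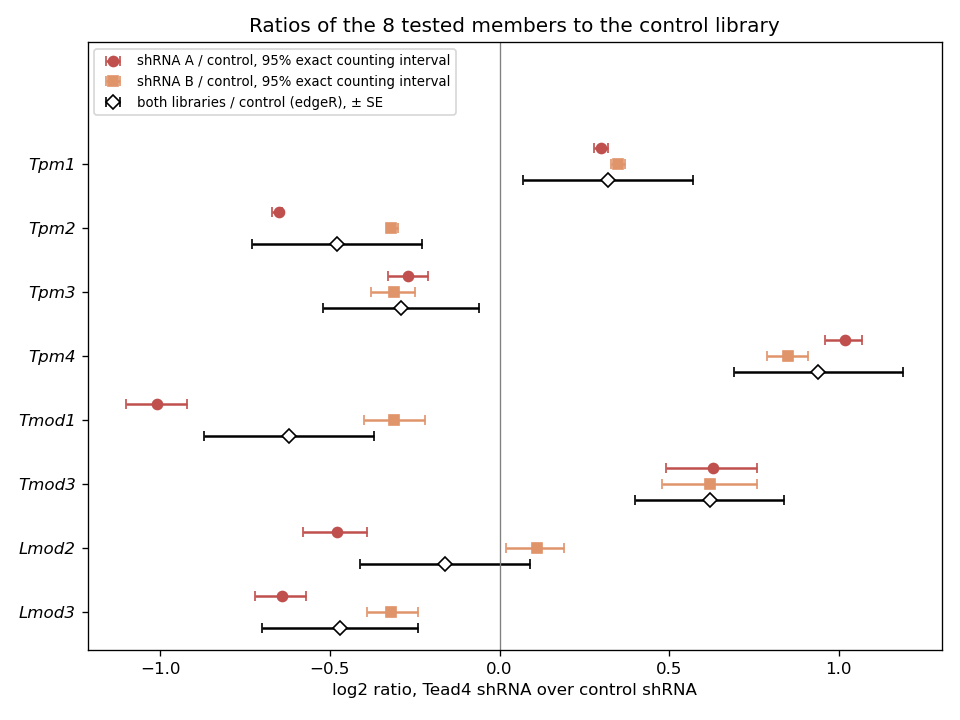
Log2 ratio to the control library (horizontal axis) for the 8 tested members: shRNA A (circles) and shRNA B (squares) with 95% exact intervals for counting error, and the edgeR estimate over both libraries (diamonds) ± SE. Tpm1, Tpm4 and Tmod3 lie right of 0 with both shRNAs, Tpm2, Tpm3, Tmod1 and Lmod3 lie left, and Lmod2 lies at -0.48 with shRNA A and 0.11 with shRNA B.

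The balance among the tropomyosin genes, which does not depend on scaling between libraries, differed from the control library with both shRNAs. Tpm4 took 10.2% of the reads of the 4 genes with shRNA A (95% exact interval 9.99 to 10.4) and 8.10% with shRNA B (7.91 to 8.28), against 4.43% in the control library (4.30 to 4.57). Tpm1 took 41.0% (40.7 to 41.3) and 38.0% (37.7 to 38.3), against 29.4% in the control library (29.1 to 29.7). Tpm2 took 44.4% (44.0 to 44.7) and 50.1% (49.7 to 50.4), against 61.5% in the control library (61.2 to 61.8). Tpm3 took 4.43% (4.30 to 4.56) and 3.83% (3.71 to 3.96), against 4.69% in the control library (4.55 to 4.83). The reads of Tpm2 over those of Tpm1 stood at 1.08 for shRNA A and 1.32 for shRNA B, against 2.09 in the control library. These intervals cover counting error within a library and are no test between cultures.

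The 4 tropomyosin genes together took 0.493% of all counted reads in the shRNA A library (0.490 to 0.496) and 0.553% in the shRNA B library (0.549 to 0.556), against 0.542% in the control library (0.539 to 0.546). The summed level was therefore lower than the control library with shRNA A and slightly higher with shRNA B as a share of raw reads. On the TMM-scaled level the sums were 4882 and 5468 CPM with shRNAs A and B, against 5544 CPM in the control library, so the direction with shRNA B turned with the scaling.

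**Figure D3:**
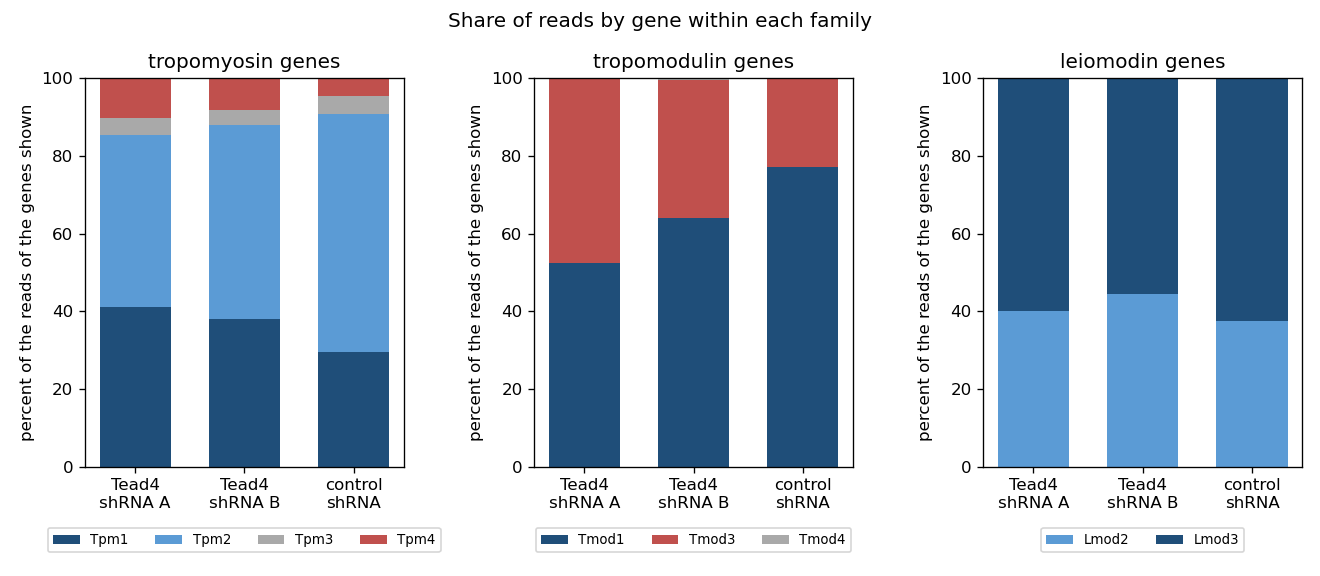
Percent of the reads of the tropomyosin, tropomodulin and leiomodin members (vertical axes) that fell on each gene in the shRNA A, shRNA B and control libraries. Tpm4 made up 10.2% and 8.10% of tropomyosin reads with the shRNAs against 4.43% in the control library, and Tmod3 made up 47.4% and 35.6% of tropomodulin reads against 22.5%.

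Among the tropomodulins, Tmod3 (ENSMUSG00000058587) had 67.6 CPM with shRNA A and 67.4 CPM with shRNA B, against 43.8 CPM in the control library. The shRNA libraries were each 1.54-fold above the control library and did not differ from each other beyond counting error, with a log2 ratio of shRNA A over shRNA B of 0.00 (interval -0.11 to 0.12). The log2 fold change over both was 0.62 (SE 0.22, unadjusted p = 0.011, edgeR adjusted p = 0.0865), which did not pass the test. Tmod3 and Tpm4 were the members at least 1.5-fold higher in both libraries with counting intervals that exclude no change; 8.99% of all tested genes met that rule. No member was at least 1.5-fold lower in both, against 7.03% of all tested genes.

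Tmod1 (ENSMUSG00000028328) had 74.7 CPM with shRNA A and 121 CPM with shRNA B, against 150.5 CPM in the control library. Both shRNA libraries were lower than the control library, and shRNA A was 0.616 times shRNA B. Set against the control library, the log2 ratios were -1.01 for shRNA A (interval -1.10 to -0.92) and -0.31 for shRNA B (-0.40 to -0.22). Its log2 fold change of -0.62 (SE 0.25, unadjusted p = 0.0215, edgeR adjusted p = 0.134) did not pass the test. In the GENCODE annotation 40.8% of the exon bases of Tmod1 also lie in exons of Tstd2 on the other strand, and the library kit does not mark strand, so reads of the 2 genes there cannot be told apart. Tstd2 had 55.6 and 50.7 CPM with shRNAs A and B, against 56.9 CPM in the control library. The part of Tstd2 reads in the values of Tmod1 was not tested.

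Tmod4 (ENSMUSG00000005628), named as a skeletal muscle tropomodulin, was close to undetected: 6 reads for shRNA A and 9 for shRNA B, against 5 in the control library. These are 0.298, 0.571 and 0.311 CPM, and the filter on low counts removed the gene. The intervals of the log2 ratios (-2.04 to 1.99 and -0.86 to 2.80) ran from a decrease to an increase, so no difference was detectable at this depth. Between the 2 tropomodulins that passed the filter, Tmod1 exceeded Tmod3 by a read ratio of 1.11 with shRNA A (interval 1.03 to 1.19) and 1.80 with shRNA B (1.67 to 1.94), against 3.44 in the control library (3.16 to 3.74). Tmod3 accordingly took 47.4% and 35.6% of tropomodulin reads with shRNAs A and B, against 22.5% in the control library.

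The leiomodins showed the 2 shRNAs apart. Lmod2 (ENSMUSG00000029683) had 90.3 CPM with shRNA A and 136 CPM with shRNA B, against 126 CPM in the control library. It was thus below the control library with shRNA A (log2 ratio -0.48, interval -0.58 to -0.39) and slightly above it with shRNA B (0.11, interval 0.02 to 0.19), and it was the only tested member whose 2 ratios had opposite signs. Its fold change over both was -0.16 on the log2 scale (SE 0.25, edgeR adjusted p = 0.788).

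Lmod3 (ENSMUSG00000044086) had 135 CPM with shRNA A and 169.7 CPM with shRNA B, against 211 CPM in the control library. Both shRNA libraries were lower, shRNA A at 0.641 and shRNA B at 0.803 times the control library, and the log2 fold change of -0.47 (SE 0.23, unadjusted p = 0.0541, edgeR adjusted p = 0.242) was not called. Those ratios nearly equal those of Tpm2, at 0.635 and 0.803 times the control library. Lmod3 reads exceeded Lmod2 reads by a ratio of 1.5 for shRNA A and 1.25 for shRNA B, against 1.67 in the control library.

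Counting intervals of both ratios lay above no change for 3 members (Tpm1, Tpm4 and Tmod3) and below it for 4 (Tpm2, Tpm3, Tmod1 and Lmod3). The backgrounds were 21.7% and 21.4% of all tested genes, and both ratios of a gene share the control library. Whether a counting interval excludes no change also depends on read depth. The tested members had 703 (Tmod3) to 54742 (Tpm2) reads in the control library, and the backgrounds were not matched for depth. Between the shRNAs, Tmod1 and Lmod2 were farthest apart among the 8 tested members, at log2 ratios of A over B of -0.70 (interval -0.80 to -0.60) and -0.59 (-0.68 to -0.50). Tpm2 and Lmod3 followed at -0.34 and -0.33, and Tpm4 lay on the other side at 0.17 (0.12 to 0.21). Tpm1 was at -0.05 (-0.07 to -0.03). For Tpm3 and Tmod3 the interval included 0, as it did for Tmod4, which was not tested (-0.94, interval -2.71 to 0.72). Each of these ratios compares 1 library with 1 other and has no replicate check. The share of all tested genes whose interval of A over B excluded 0 was not computed.

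Divided by exon length, the order of levels of the 8 tested members was the same in the 3 libraries except that Tpm3, Lmod3 and Lmod2 changed places. Tpm2 was highest, at 909 and 1149.5 CPM per kb with shRNAs A and B, against 1431 CPM per kb in the control library. Tpm1 came next with 419 and 435 CPM per kb, against 341 CPM per kb in the control library. Tpm4 was the next, at 233 and 208 CPM per kb with the shRNAs and 115 CPM per kb in the control library. Tpm3 (63.1 to 78.3 CPM per kb over the 3 libraries), Lmod3 (61.1 to 95.4) and Lmod2 (45.7 to 68.9) overlapped in range. Tmod1 (23.7 to 47.6) and Tmod3 (10.6 to 16.3) were lowest. Lengths are merged exons of the GENCODE basic set on GRCm38, and they overstate the transcript length of genes with many isoforms such as Tpm1.

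Lmod1 and Tmod2 are relatives outside the 9, and both had low levels. Lmod1, the smooth muscle leiomodin, had 21.1 CPM with shRNA A and 11.7 CPM with shRNA B, against 3.92 CPM in the control library, and rose by 2.07 on the log2 scale (SE 0.37, edgeR adjusted p = 7.55e-04). Tmod2, the neuronal tropomodulin, had 23 and 6 reads with shRNAs A and B, against 2 reads in the control library. Its log2 fold change of 2.58 (SE 1.35) was not called.

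Of 46 tested genes in a list of other thin filament and actin genes, which includes these relatives, 12 rose and 8 fell with Tead4 shRNA. Over all tested genes 5.34% were called higher and 4.48% lower. The list's median log2 fold change was 0.43, against 0.02 over all tested genes. The count of genes that fell was 5 with RLE scaling and 4 with upper-quartile scaling. The smooth muscle actin Actg2 (2.50, SE 0.31), Lmod1 and the actin-assembling formin Diap3 (1.43, SE 0.30) rose at least 2-fold in both libraries. The slow troponin T Tnnt1 (-1.67, SE 0.23) and nebulin, coded by Neb, which runs along the thin filament (-1.20, SE 0.23), fell at least 2-fold in both. The other genes that fell, named after their values were seen, were the troponins Tnnt2, Tnnt3, Tnni1, Tnni2 and Tnnc2 and the formin Daam1, from -1.15 (Tnnt3) to -0.76 (Tnnt2). The others that rose, named likewise, were the actins Actb, Actg1 and Acta2, the actin-binding Cnn2 and Pfn2, the filament-turnover genes Cfl1, Cap1 and Wdr1, and the formin Fhod1, from 0.94 (Cfl1) to 1.12 (Cnn2). Actin genes are near-identical in sequence, so the split of reads among them is uncertain. Among 4711 genes with a mean of at least 50 CPM, those whose 2 log2 ratios lay nearest to Tpm4 were Cfl1 (cofilin, at 1.02 and 0.85), Sh3bgrl3 (1.0 and 0.83) and Nuak1 (1.0 and 0.81), over 3 libraries only. Within a distance of 0.1 from Tpm4 over the 2 log2 ratios there were 11 of these genes.

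**Figure D4:**
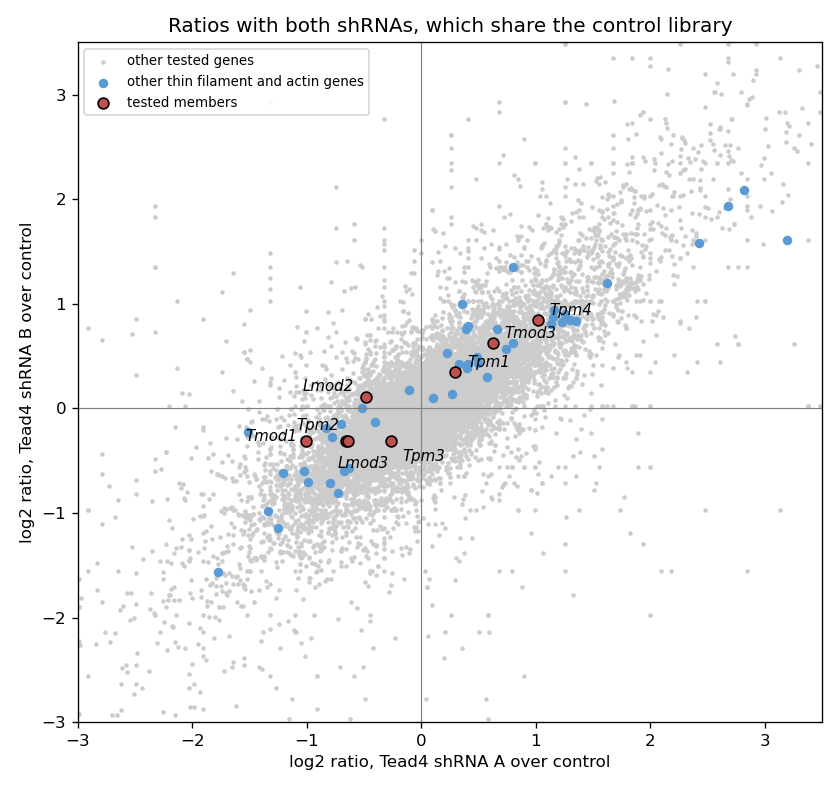
Log2 ratio to the control library with shRNA A (horizontal axis) and shRNA B (vertical axis) for all tested genes with reads in all 3 libraries (grey), other thin filament and actin genes (blue) and the 8 tested members (red); both axes share the control library, and 147 genes lie outside them. Tpm4 sits among the blue genes that rose, at 1.02 and 0.85, and Tpm2 and Lmod3 nearly coincide at -0.65 and -0.32 and at -0.64 and -0.32.

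Markers of cell states were counted by the same test, which called 5.34% of all tested genes higher and 4.48% lower. Of 6 tested smooth muscle and myofibroblast markers 4 rose (Acta2, Actg2, Lmod1 and Tagln), while Smtn and Cnn1 were not called. Of those that rose, all but Tagln were also counted in the thin filament and actin list. The smooth muscle and myofibroblast markers summed to 4137 and 3214 CPM with shRNAs A and B, against 1712 CPM in the control library. Most of each sum was the actin Acta2, at 3682 and 2884 CPM with the shRNAs, against 1540.1 CPM in the control library. The smooth muscle myosin Myh11 had 5 and 0 reads, against 3 in the control library. All 5 tested markers of dividing cells rose, at a summed 133 and 129 CPM with the shRNAs, against 29.4 CPM in the control library. Among markers of undifferentiated satellite and reserve cells, 3 of 5 rose and Myf5 fell; the list summed to 129 and 154 CPM, against 101 CPM in the control library. Fibroblast markers rose in 0 of 4 and fell in 1 (Dcn), at 645 and 463 CPM against 675 CPM in the control library. Of the skeletal muscle markers 0 rose and 4 of 9 fell (Myh3, Myog, Ckm and Mb). Of 2 tested cardiac markers neither was called, at 55.9 and 40.2 CPM against 73.2 CPM in the control library for the list, and Nppa had 1 and 0 reads against 0. The part of these cell states in the values of Tpm4, Tmod3, Tmod1 and Tpm2 was not tested.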

How the data were processed

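Polyadenylated RNA from 3 C2C12 libraries was sequenced as single-end reads with a kit that does not mark strand, per the labels. The deposited table lists raw counts by Ensembl gene. Beside each count stands the authors' normalized value, a score equal to the count times 1 factor per library and rounded (0.801 for shRNA A, 1.02 for shRNA B and 1.0 for the control; 0 values were off by more than 1). The submitters' processing notes name the mm9 build, DESeq, Cufflinks 0.8.2 and TopHat 1.0.12 without saying what each did; which program counted reads and how multiply mapped reads were treated is not given in the sources used here. Tests used the raw counts.

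The 2 Tead4 shRNA libraries were compared with the 1 control library in R 4.3.3 with edgeR 4.0.16: filterByExpr, TMM scaling and the quasi-likelihood F test, with p-values adjusted by Benjamini-Hochberg over all 14478 tested genes and called under 0.05. This leaves 1 residual degree of freedom, from the spread between libraries of different shRNAs, and the single control library is taken to vary as they do. In the fit, that 1 degree of freedom is combined with 20.9 prior degrees of freedom drawn from all tested genes. Standard errors and p-values thus rest mostly on a spread shared across genes, not on each gene's own. Each standard error is the size of the log2 fold change over the root of its F statistic. The fit was tested on simulated data, drawn with the fitted spread for all 3 libraries. The simulation therefore cannot check whether the control library varies as the others do. Ratios and shares per library carry 95% Clopper-Pearson intervals for counting error only. These intervals treat reads as independent. PCR reads without molecular identifiers are not independent molecules, so the intervals may be too narrow. Alternatives were RLE, upper-quartile and total-count scaling, no filter, DESeq2 1.42.0, limma-voom (limma 3.58.1), the newer quasi-likelihood method and each shRNA library alone. All 9 members are named; from the thin filament list, the called genes at least 2-fold changed in both libraries, up to 4 in each direction. Of that list's 49 symbols, 46 were matched. The members and lists were chosen with earlier results of these data known. Promoter windows are RefSeq's, and exon overlaps and lengths come from the GENCODE M21 annotation of GRCm38; both were joined by symbol.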

Additional observations from a re-analysis of the deposited data

How the results depend on the processing

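The call of Tpm4 as higher held under 7 of the 8 alternative tests, with log2 fold changes from 0.93 to 0.98. No other member was called under any of the 8. All 8 used the same 3 libraries, so they are not independent evidence. The exception for Tpm4, chosen after seeing the data, was edgeR's likelihood-ratio test with the dispersion of all 3 libraries taken as 1 group. That dispersion counts the difference between the Tead4 shRNA and control libraries as spread. By that test the value of Tpm4 was 0.94 with an adjusted p of 0.885 (unadjusted p = 0.073). It called 0 members, 0 thin filament and actin genes and 0 genes in all in either direction, with 540 genes and 0 members at an unadjusted p under 0.05. DESeq2 called 447 genes higher and 371 lower, against 773 and 649 by edgeR's quasi-likelihood test. Of the thin filament and actin list, 8 genes fell with TMM scaling, 5 with RLE scaling and 4 with upper-quartile scaling; the cause was not tested. With each shRNA library alone, a value with no test, Tmod1 ran from -1.01 (shRNA A) to -0.31 (shRNA B) on the log2 scale and Lmod2 from -0.48 (shRNA A) to 0.11 (shRNA B). Upper-quartile and total-count scaling each moved 4 of the 18 ratios per library, those of Tpm1 and Tpm2, beyond their counting intervals, with no change of sign. No paired analysis was possible because the control group holds 1 library and the labels give no replicate numbers. Depth limited Tmod4, whose 5 to 9 reads per library could not show a change.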
